A study of Homo sapiens with 9 samples.

Results

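H3K27me3 regions that were listed in control LNCaP cells and met no listed H3K27me3 region after EZH2 knockdown are described here. They were chosen by 1 rule, that a control region on chromosomes 1 to 22 or X shares not even 1 bp with any H3K27me3 region of the knockdown list. Positions are those of the human genome build hg19, counted as the files give them. The rule left 5063 of 85023 control regions on these chromosomes, or 5.95% (95% exact binomial interval 5.80 to 6.12). They are called uncalled regions below, and the other 79960 are called regions called again. LNCaP cells are an androgen-responsive line of human prostate cancer.

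Both groups were LNCaP cells grown in RPMI with serum and infected with lentivirus. The knockdown group, shEZH2, carried a short hairpin against EZH2, and the control group carried the plko.1 vector. Cells were fixed 2 to 3 days after infection, and DNA bound by antibodies to H3K27me3, EZH2 and H3K27ac was sequenced (ChIP-seq). Each target had 1 library in each group, so no difference between the groups could be set against a spread between cultures. The labels give neither the hairpin's sequence nor a measure of EZH2 protein. EZH2 peaks numbered 9493 in shEZH2 and 23060 in control.

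EZH2 gives Polycomb repressive complex 2 its enzymatic activity. It places methyl groups on lysine 27 of histone H3, and the trimethylated form, H3K27me3, marks silenced chromatin in broad domains and in narrower patches. The same lysine can be acetylated instead, and this mark, H3K27ac, is found at promoters and enhancers in use. H3K27me3 is lost from chromatin by demethylation and by dilution as cells divide.

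The uncalled regions were the narrow and weak end of the control list. Their median width was 151 bp, which is a single calling window, and 4009 of them (79.2%, 78.0 to 80.3) had exactly that width. Of the regions called again, 34.3% did, and their median width was 227 bp with quartiles of 151 and 477 bp. Of the uncalled regions, 98.2% were at most 300 bp wide, and 8 were wider than 500 bp. They held a median of 4.21 control H3K27me3 tags, normalised by the authors to 10000000 tags per library, with quartiles of 3.91 and 5.11 and a lowest value of 3. Regions called again held 6.61 tags, with quartiles of 4.51 and 13.8. Per kb the medians lay close together, at 27.9 tags in uncalled regions and 29.1 in regions called again. These widths and tags belong to the contrast that chose the regions, so they are a description and support nothing further.

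The settings of the calls bear directly on these values. The control call needed 13 tags in a window of 150 bp, which is 3.91 normalised tags or 26.0 per kb. The deposited tag number of a region can lie below this, so it is not the very number the call used. The shEZH2 call needed 25 tags in a window of 1000 bp, which is 9.53 normalised tags or 9.5 per kb. The shEZH2 call was thus 2.74-fold more lenient in density, but asked for 2.44-fold more tags within a window. Few uncalled regions held that many tags of their own in control: 77 of 5063 (1.52%, 1.20 to 1.90) reached 9.53, against 29322 of 79960 regions called again (36.7%). An uncalled region at the median held 14 raw tags, 1 above the minimum, and the counting error of 14 tags alone spans 2.30 to 7.06 normalised tags (95% Poisson interval). It stood 3.54 normalised tags above the 0.67 that the caller expected in 151 bp. Added to the 4.45 tags expected in a shEZH2 window, that makes 7.98, which is under the 9.53 needed. By the same sum, 10.8% of uncalled regions and 55.5% of regions called again would reach the minimum with their control tags unchanged. In single-window regions the sum gave 1.42% (1.08 to 1.84) of 4009 uncalled regions and 1.82% (1.66 to 1.98) of 27418 called again, and these intervals overlap. The 27418 are by definition regions that met a shEZH2 region, and all but 498 of them were under 9.53 by this sum. The sum therefore did not tell uncalled single-window regions from those called again. The shEZH2 list gives no tag number outside its regions, so the level of H3K27me3 at an uncalled region after knockdown is not known. The knockdown and the change of calling settings cannot be told apart here.

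The share of control regions left uncalled fell steeply with their tags. It was 14.5% (13.8 to 15.1) below 4 tags, 11.8% from 4 to 5 tags, 7.34% from 5 to 6 and 3.76% from 6 to 8. Between 9.53 and 20 tags it was 0.437% (70 of 16014 regions). Above 20 tags, 7 of 13385 regions were uncalled. By width, 12.8% (12.4 to 13.1) of regions of 151 bp were uncalled, 3.09% of those of 201 to 300 bp, and 8 of 18954 regions above 500 bp.

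**Figure D1:**
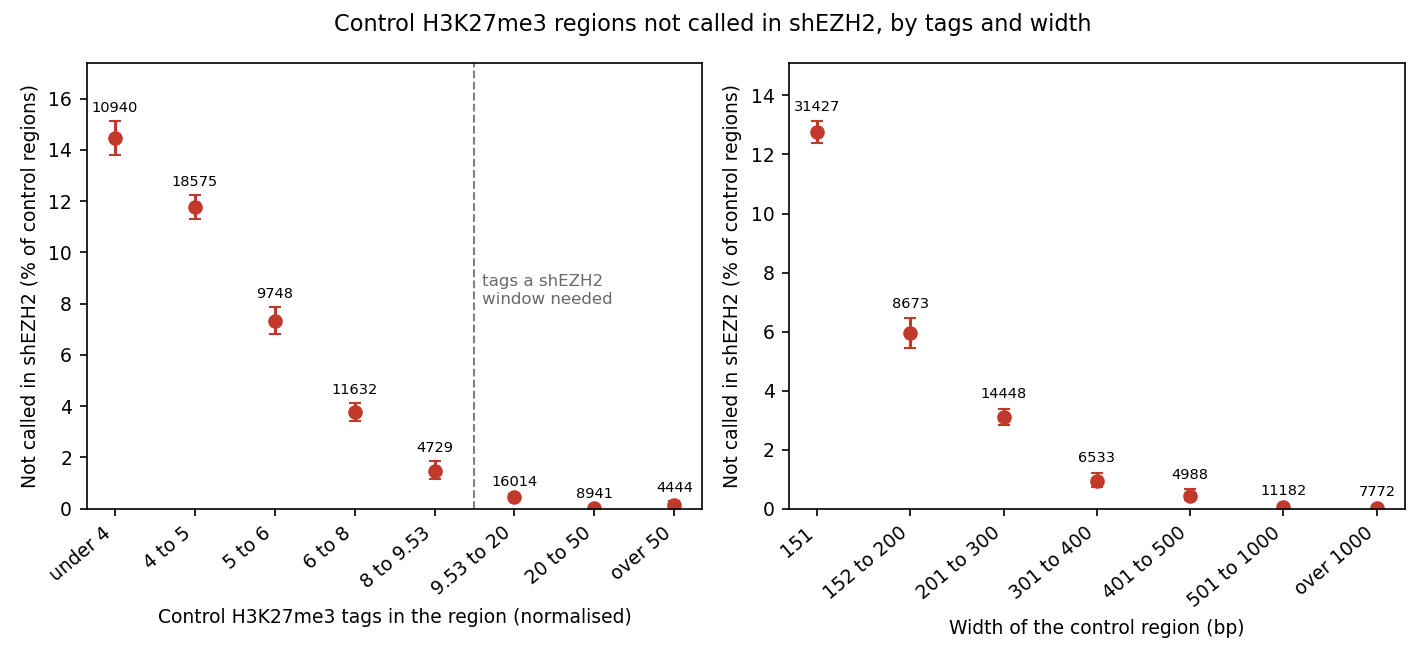
Share of control H3K27me3 regions not called in shEZH2 (y axis, percent) by normalised control tags in the region (left) and by region width in bp (right). Points are shares with 95% exact binomial intervals over regions and the number above each is the regions in that class. The share is highest, 14.5%, under 4 tags and stays below 0.5% beyond the 9.53 tags that a shEZH2 window needed (dashed line).

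The regions nearest to the limit of the rule are given as examples. Just inside the rule, 8 uncalled regions abutted a shEZH2 region with no bp between them, among them chromosome 1 from 6512621 to 6512771 with 3.91 tags, chromosome 1 from 21830187 to 21830337 with 4.21 and chromosome 18 from 69910864 to 69911014 with 4.81. Just outside it, 4 regions called again shared a single bp, among them chromosome 1 from 30382619 to 30382769 with 6.31 tags, chromosome 16 from 51014342 to 51014492 with 4.21 and chromosome 17 from 61604380 to 61604530 with 4.51. Of the 5063 uncalled regions, 48 lay under 10 bp and 1852 within 1 kb of a shEZH2 region. Most regions called again lay well clear of this border. Of the 79960 regions called again, 78679 were covered along their whole length and 407 over less than 50% of it.

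Uncalled regions stood apart from other H3K27me3. The nearest other control region lay a median of 7527 bp away (quartiles 2478 and 26532 bp), against 710 bp (366 and 2154 bp) for regions called again. No other control region lay within 10 kb of 2209 uncalled regions (43.6%, 42.3 to 45.0), compared with 9.61% of regions called again. Within 50 kb there were a median of 4 other control regions around an uncalled region and 17 around a region called again.

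The isolation was also seen at equal width. Among regions of a single window, which were set apart after the data were seen, 45.1% of 4009 uncalled regions and 13.4% of 27418 regions called again had no neighbour within 10 kb. The share left uncalled among them climbed with the distance to the nearest other control region. It was 1.09% (80 of 7310) up to 0.5 kb, 9.67% from 1 to 2 kb, 21.7% from 5 to 10 kb and 40.2% (37.9 to 42.6) beyond 50 kb. By tags it varied less, between 14.9% at 3.6 normalised tags and 10.1% at 5.41. A window of 1000 bp that covers 2 neighbouring control regions counts the tags of both. The share also climbed over distances longer than such a window, from 9.67% at 1 to 2 kb to 40.2% beyond 50 kb. What part such windows had in the climb was not tested. Neighbouring regions belong to the contrast behind the rule, so these shares too are a description.

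**Figure D2:**
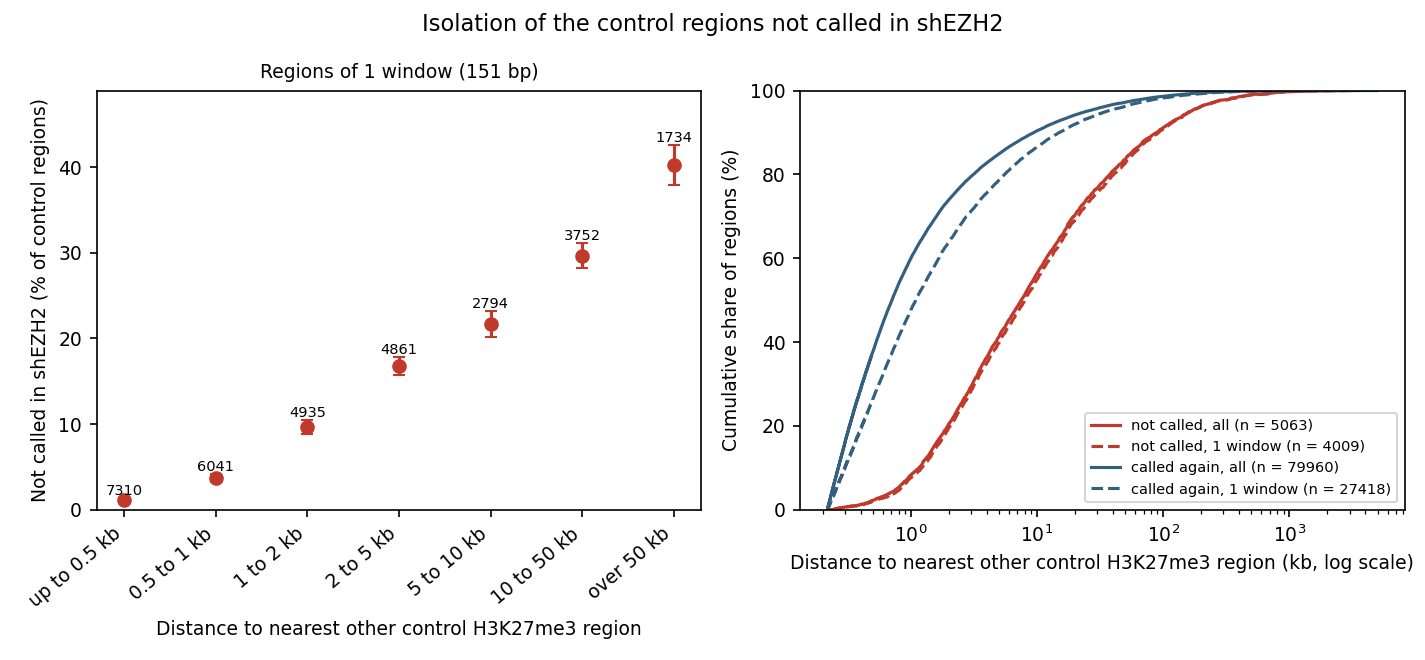
Left, share of single-window control H3K27me3 regions not called in shEZH2 (percent, with 95% exact binomial intervals and the number of regions) by distance to the nearest other control H3K27me3 region. Right, cumulative share of regions (percent) by that distance in kb on a log axis, for uncalled regions (red) and regions called again (blue), all (solid) or of 1 window (dashed). The left panel climbs from 1.09% to 40.2%, and the red curves lie to the right of the blue ones.

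Being uncalled did not mean lying far from the shEZH2 regions. The nearest shEZH2 H3K27me3 region was a median of 1757 bp away, with quartiles of 618 and 6439 bp. It lay within 1 kb of 1852 uncalled regions (36.6%, 35.3 to 37.9), between 1 and 10 kb from 2267 (44.8%) and beyond 10 kb from 944 (18.6%, 17.6 to 19.8). Most uncalled regions stood singly among the control regions, of which 5.95% were uncalled. Whether series were more or less frequent than that share alone would give was not tested. Of the 5063, 3976 (78.5%) had a region called again, or more than 100 kb, on each side before the next uncalled region, and 854 came as pairs. The longest series held 6 regions on chromosome 11 from 92327227 to 92438619, with 3.6 to 6.31 tags each. Away from repeat-rich sequence, taken here as 2 Mb to each side of the stretch on a chromosome where no list has a region for the longest distance, the series of 4 with the longest spans were on chromosome 7 from 29456693 to 29579081, on chromosome 10 from 111685495 to 111767272, on chromosome 6 from 73626706 to 73703717 and on chromosome 5 from 157948643 to 158019769. No region of these 5 series touched a control EZH2 peak or a shEZH2 H3K27ac region.

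The most remote uncalled regions lay in stretches nearly empty of the mark. On chromosome 8 from 89698401 to 89698551, a region with 3.6 tags was 1382820 bp from the nearest shEZH2 H3K27me3 region and 1396001 bp from the next control one, and it touched a shEZH2 H3K27ac region of 10.8 tags. On chromosome 11 from 40612470 to 40612620 a region with 3.6 tags was 1257115 bp from a shEZH2 region and 1907698 bp from a control one. The others of the 5 most remote were on chromosome 5 from 67107580 to 67107772 with 6.01 tags and from 114212599 to 114212749 with 5.11, and on chromosome X from 96770003 to 96770153 with 3.91.

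EZH2 was measured in libraries that played no part in the choice of the regions. A control EZH2 peak lay on 108 of 5063 uncalled regions (2.13%, 1.75 to 2.57) and on 8500 of 79960 regions called again (10.6%, 10.4 to 10.9), a difference of -8.50 percentage points (Newcombe interval -8.92 to -8.01). A shEZH2 EZH2 peak lay on 60 uncalled regions (1.19%, 0.906 to 1.52) and on 4274 called again (5.35%). The nearest control EZH2 peak was a median of 44021 bp from an uncalled region and 10224 bp from a region called again. These intervals cover counting error over regions, which are not replicates of a culture.

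The difference in EZH2 was below 1 percentage point in single-window regions and in values weighted over tags or width. In single-window regions, 1.72% (1.34 to 2.17) of uncalled regions and 2.03% (1.87 to 2.20) of regions called again held a control EZH2 peak, a difference of -0.310 points (-0.709 to 0.169). Weighted over deciles of control tags it was -0.349 points (-0.770 to 0.0721), and over classes of width -0.530 points (-0.956 to -0.103). In single-window regions without repeat-rich sequence it was -0.495 points (-0.862 to -0.0460), so whether the interval took in 0 depended on the weighting and the regions kept. With control peaks on the region or within 1 kb of it counted together, the shares differed more. They were 3.72% of single-window uncalled regions and 7.93% of those called again. A shEZH2 EZH2 peak lay on 33 of 4009 uncalled single-window regions (0.823%) and on 137 of 27418 called again. Without repeat-rich sequence it lay on 0.465% of uncalled regions and 0.381% of those called again. Some wider classes differed more in control EZH2, and not in the same direction. At 201 to 300 bp a control peak lay on 2.91% of uncalled regions and 5.30% of those called again. In the next wider class a control peak lay on 17.7% of uncalled regions (11 of 62) and 10.2% of those called again.

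**Figure D3:**
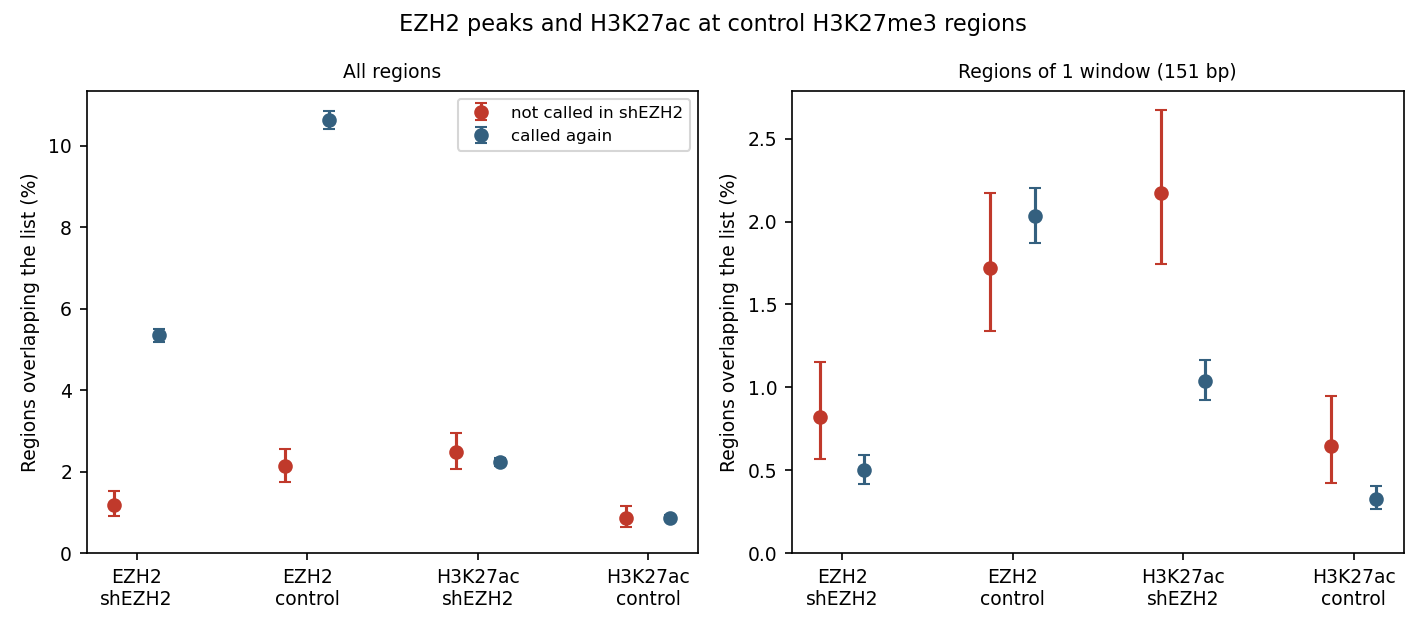
Share of control H3K27me3 regions (percent) that overlap an EZH2 peak or an H3K27ac region of the shEZH2 or control list, for all regions (left) and regions of 1 window (right). Points are shares with 95% exact binomial intervals over regions, red for uncalled regions and blue for regions called again. EZH2 shares differ widely on the left and much less on the right, where both H3K27ac shares are higher in uncalled regions.

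Whether EZH2 peaks on uncalled regions were called again more or less often than those on other regions differed between all regions and regions of equal width. Of these 108 control peaks, 45 met a shEZH2 peak (41.7%, 32.3 to 51.6), as did 32.7% (31.8 to 33.7) of 9814 control peaks on regions called again, while 77.4% of all 22630 control peaks on these chromosomes met none. Counted by region, 43 of 108 uncalled regions with a control peak also held a shEZH2 peak (39.8%, 30.5 to 49.7), against 40.7% of regions called again. Without repeat-rich sequence the shares by region were 28.9% (19.5 to 39.9) of uncalled regions and 39.8% of regions called again. In single-window regions a shEZH2 peak was more frequent on uncalled regions, at 22 of 69 with a control peak (31.9%, 21.2 to 44.2), against 68 of 557 regions called again (12.2%, 9.61 to 15.2). Without repeat-rich sequence these shares were 22.2% (12 of 54) of uncalled regions and 9.58% (48 of 501) of regions called again. The peaks on uncalled regions held a median of 10.5 normalised tags and stood 10.0-fold above their local background, and those on regions called again held 12.8 tags and stood 7.06-fold above it. The fold over local background is the authors' value for each peak.

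Where both EZH2 lists had a peak, EZH2 tags were higher in shEZH2 at most uncalled regions and lower at most regions called again. At 43 such uncalled regions the strongest peak held a median of 19.3 tags in shEZH2 and 15.8 in control, and the median log2 ratio of shEZH2 over control was 0.11 (quartiles -0.16 and 0.45). At 3456 regions called again the medians were 11.7 in shEZH2 and 22.5 in control, with a median log2 ratio of -0.87. Tags were higher in shEZH2 at 27 of the 43 uncalled regions and at 284 of the 3456 called again. Without repeat-rich sequence the medians were 0.12 at 24 uncalled regions and -0.91 at 3149 called again. In single-window regions they were 0.09 at 22 uncalled regions and -0.20 at 68 called again. A pair enters only if it passed the shEZH2 minimum of 6.89 tags, so weak control peaks can show only small falls. Among pairs with under 15 control tags the medians were -0.07 at 14 uncalled regions and -0.34 at 792 called again. EZH2 peaks were 151 bp wide in shEZH2 and 183 bp in control, and per kb the medians over all pairs were 0.38 for uncalled regions and -0.59 for regions called again.

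H3K27ac was rare on uncalled regions and on the others. A shEZH2 H3K27ac region touched 126 of 5063 uncalled regions (2.49%, 2.08 to 2.96) and 1788 of 79960 regions called again (2.24%, 2.14 to 2.34), a difference of 0.253 points (-0.156 to 0.730). A control H3K27ac region touched 44 uncalled regions (0.869%) and 696 called again (0.870%). Most uncalled regions, 4871 of 5063, held neither a control EZH2 peak nor shEZH2 H3K27ac. The median distance to the nearest shEZH2 H3K27ac region was 50137 bp for uncalled regions and 50276 bp for regions called again.

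Among regions of a single window, H3K27ac was more frequent on uncalled regions. Of the single-window regions, 87 of 4009 uncalled ones (2.17%, 1.74 to 2.67) and 285 of 27418 called again (1.04%, 0.923 to 1.17) touched shEZH2 H3K27ac, a difference of 1.13 points (0.704 to 1.64). Away from repeat-rich sequence the shares were 1.70% of uncalled regions and 0.698% of regions called again. Matched for tag value and for distance to the nearest other control region, the shEZH2 difference was 0.970 points (SE 0.233, interval 0.513 to 1.43). The control H3K27ac list gave the same order, 0.649% of uncalled regions and 0.328% of regions called again. Matched in the same way, its difference was 0.209 points (SE 0.117, interval -0.0193 to 0.438).

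Most of the H3K27ac regions that met uncalled regions were present in both H3K27ac lists. Of the 126 uncalled regions with shEZH2 H3K27ac, 39 also touched a control H3K27ac region and 87 did not, and 56 had no control H3K27ac within 1 kb. Of the 122 shEZH2 H3K27ac regions involved, 47 (38.5%, 29.9 to 47.8) met no control region, against 41.0% of all 58174 shEZH2 H3K27ac regions. Of 44 control H3K27ac regions on uncalled regions, 39 were called again and 5 were not, and 3.0% of all 56941 control H3K27ac regions were not. The 122 regions held a median of 24.4 tags, against 30.2 for all shEZH2 H3K27ac regions. Of the 126 uncalled regions, 103 (81.7%) lay wholly inside the H3K27ac region, compared with 57.1% of the 1788 regions called again that touched it. Their widths differed too: 521 of the 1788 were wider than 1000 bp, against 1 of the 126. The shares wholly inside were not compared at equal width.

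Where control EZH2 was present, H3K27ac was more frequent on uncalled regions than on the rest, in both H3K27ac lists. Of the 108 uncalled regions with a control EZH2 peak, 42 touched shEZH2 H3K27ac (38.9%, 29.7 to 48.8), against 935 of 8500 regions called again with EZH2 (11.0%, 10.3 to 11.7). Control H3K27ac touched 28 of these 108 uncalled regions (25.9%, 18.0 to 35.2) and 417 of the 8500 called again (4.91%, 4.46 to 5.39). In single-window regions the shares with shEZH2 H3K27ac were 37.7% of uncalled regions (26 of 69) and 13.1% of regions called again (73 of 557). Without repeat-rich sequence these were 31.5% of uncalled regions (17 of 54) and 9.38% of regions called again (47 of 501). H3K27ac grew more frequent with distance from shEZH2 H3K27me3: it touched 1.19% of uncalled regions within 1 kb of a shEZH2 H3K27me3 region, 1.90% from 1 to 10 kb, 5.58% from 10 to 100 kb and 11.6% (6.77 to 18.1) beyond 100 kb. Control EZH2 peaks followed the same order, at 1.19%, 1.68%, 4.59% and 7.97%. Regions called again have no such distance. By distance to the nearest other control region, single-window regions called again touched shEZH2 H3K27ac at 1.26% up to 0.5 kb, 0.717% at 2 to 5 kb and 2.60% beyond 50 kb. Beyond 50 kb the share was 3.73% of uncalled single-window regions. Control EZH2 peaks there lay on 4.63% of those called again and 2.15% of uncalled ones. The rise is thus not particular to uncalled regions.

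The uncalled regions with the strongest shEZH2 H3K27ac were themselves weak in H3K27me3. On chromosome 1 from 20810810 to 20810960, a region of 4.51 H3K27me3 tags lay in a shEZH2 H3K27ac region of 1175.2 tags and 19489 bp, and in a control one of 234.5 tags and 2132 bp. On chromosome X from 39969948 to 39970098, with 6.61 H3K27me3 tags, the shEZH2 H3K27ac region held 981.3 tags over 7360 bp and the control one 6.88 tags over 151 bp. On chromosome 20 from 34679991 to 34680228, with 7.81 tags, the shEZH2 region held 480.7 tags and the nearest control H3K27ac region lay 4 bp outside it. On chromosome 19 from 676818 to 677009, with 5.11 tags, H3K27ac held 434.3 tags in shEZH2 and 6.31 in control. On chromosome 12 from 133841625 to 133841866, with 8.11 tags, H3K27ac held 310.3 tags over 692 bp in shEZH2 and 344.1 over 451 bp in control, and EZH2 peaks of 17.2 tags in shEZH2 and 15 in control lay on it. H3K27ac regions were called with wider windows in shEZH2 (1000 bp) than in control (150 bp), so their tags per region are not comparable between the groups.

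A small set of strong regions was also uncalled. Of the 7 with over 20 H3K27me3 tags, 6 held a shEZH2 EZH2 peak, 5 touched shEZH2 H3K27ac and 3 lay in repeat-rich sequence. Of regions called again, 4.37% of those with 20 to 50 tags and 9.94% of those above 50 touched shEZH2 H3K27ac. Their share with a shEZH2 EZH2 peak was not counted above 20 tags. Among the 77 uncalled regions that reached 9.53 tags, 14 (18.2%, 10.3 to 28.6) held a shEZH2 EZH2 peak and 12 (15.6%, 8.32 to 25.6) touched shEZH2 H3K27ac. Among regions called again that reached 9.53, 13.5% held a shEZH2 EZH2 peak and 4.11% touched shEZH2 H3K27ac. Of these 77, 34 (44.2%) had no other control region within 10 kb, compared with 5.64% of those called again.

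The strongest was on chromosome 3 from 196625501 to 196625903, 403 bp wide, with 791.5 H3K27me3 tags in control. Its EZH2 peak held 1152.6 tags in shEZH2, 366.37-fold above local background, and 853.6 tags in control, 136.62-fold above it. The nearest H3K27ac region lay 29032 bp away in shEZH2 and 30001 bp away in control. The next away from repeat-rich sequence was on chromosome 5 from 60956261 to 60956599 with 56.2 H3K27me3 tags, where EZH2 held 42.7 tags in shEZH2 and 42.0 in control. On chromosome 9 from 44070587 to 44070928, with 53.8 H3K27me3 tags, EZH2 held 93 tags in shEZH2 and 84 in control, and H3K27ac held 23.9 tags in shEZH2 and 20.6 in control. On chromosome 9 from 70076585 to 70076910, with 16.8 H3K27me3 tags, EZH2 held 46.2 tags in shEZH2 and 24.0 in control. At these 4 places EZH2 tags were higher in shEZH2 than in control. Among uncalled regions with at least 9.53 H3K27me3 tags, 12 held an EZH2 peak in both lists. EZH2 tags were higher in shEZH2 at 7 of these 12, so the 4 places do not stand for all of them. Repeat-rich sequence was placed by stretches without listed regions alone. Whether the 4 places lie in repeats, or have copies elsewhere in the genome, was not tested.

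Tags were stacked at the same positions in some of these strong regions. The caller removed candidates whose clonal fold, the authors' measure of such stacking, passed 2.0, which were 28 in the shEZH2 H3K27me3 list and 66 in the control list. The region on chromosome 3 had a clonal fold of 2.0, at that limit, and the one on chromosome 16 from 46449547 to 46449884, in repeat-rich sequence with 101.2 tags, had 1.78. A clonal fold of at least 1.5 was found in 5 of the 77 uncalled regions with at least 9.53 tags (6.49%, 2.14 to 14.5) and in 47 of 29322 regions called again (0.160%, 0.118 to 0.213). Over all uncalled regions it was found in 9 of 5063. Whether any of the 28 removed shEZH2 candidates lay on an uncalled region was not tested, since the list does not name them.

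**Figure D4:**
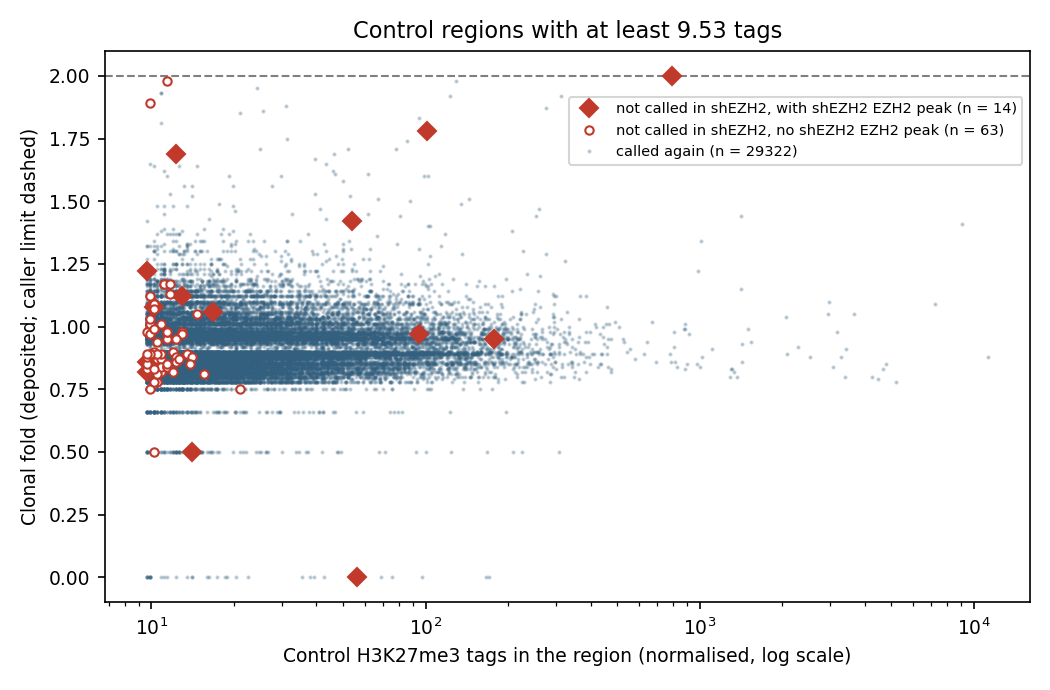
Clonal fold (y axis, the authors' measure of tags stacked at the same positions) against normalised control H3K27me3 tags (x axis, log scale) for control regions with at least 9.53 tags. Red diamonds are the 14 uncalled regions with a shEZH2 EZH2 peak, open circles the 63 without one and blue dots the 29322 regions called again. The strongest uncalled region, at 791.5 tags, lies on the caller's limit of 2.0 (dashed line).

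Of the other strong regions just described, clonal fold was listed at 0.0 on chromosome 5, at 1.42 at the region of 53.8 tags on chromosome 9 and at 1.06 at that of 16.8 tags. Further uncalled regions named for their tags or width had clonal folds between 0.75 and 0.99. On chromosome 17 from 31149724 to 31149999, a region of 21.0 tags lay 137389 bp from the nearest shEZH2 H3K27me3 region and touched shEZH2 H3K27ac of 11.7 tags. The widest away from repeat-rich sequence were on chromosome 11 from 130696161 to 130696739 (579 bp, 15.6 tags), chromosome 13 from 110848214 to 110848768 (555 bp, 12.3 tags), chromosome 21 from 34353272 to 34353786 (515 bp, 11.4 tags), chromosome 2 from 25306400 to 25306905 (506 bp, 14.1 tags) and chromosome 4 from 100160035 to 100160538 (504 bp, 10.2 tags). Of these 5, the first and second lay 363 and 422 bp from a shEZH2 region, and the one on chromosome 4 lay 224403 bp away. Others among the 10 with most tags were on chromosome 3 from 184220542 to 184221008 (13.8 tags), where a control EZH2 peak of 7.5 tags was not called again, on chromosome 1 from 179784487 to 179784951 (13.5 tags) and on chromosome 14 from 23027232 to 23027732 (12.9 tags). Among the 5 with the EZH2 peak of highest score were also chromosome 17 from 41465976 to 41466286, with 9.01 H3K27me3 tags and EZH2 of 26.9 tags in shEZH2 and 49.5 in control, and chromosome 18 from 50319140 to 50319344, with 5.71 H3K27me3 tags and EZH2 of 36.5 tags in shEZH2 and 24.8 in control. EZH2 was lower in shEZH2 at the first of these and higher at the second.

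Uncalled regions were found on each of the 23 chromosomes, in unequal shares. Chromosome 1 held the most, 504, and chromosome X the fewest, 38. As a share of a chromosome's control regions they were most frequent on chromosome 6 (10.5%, 9.21 to 11.8) and on chromosome X (9.07%, 6.50 to 12.2), whose intervals overlap. They were least frequent on chromosome 19 (2.22%, 1.76 to 2.76), chromosome 22 (3.19%, 2.46 to 4.07), chromosome 16 (3.67%) and chromosome 17 (3.69%). The share on chromosome 6 was 4.72-fold that on chromosome 19 (3.67 to 6.07), and 3.48-fold (2.68 to 4.52) in single-window regions, where the shares were 20.4% on chromosome 6 and 5.88% on chromosome 19.

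Chromosomes dense in H3K27me3 tended to leave a smaller share of their regions uncalled. Up to the last listed region, chromosome 19 held 59.5 control regions per Mb and chromosome 20 held 66.2, with 3.82% uncalled, while chromosome 6 held 12.8 and chromosome X 2.70. Spearman's rho between the share uncalled and the regions per Mb was -0.86 over the 23 chromosomes and -0.86 in single-window regions. The chromosomes share the same libraries and thresholds, and rho is given as a description. Per Mb, uncalled regions were densest on chromosome 20 (2.53) and sparsest on chromosome X (0.245). Within 5 Mb of a chromosome's first base or last listed region lay 10.2% (9.35 to 11.0) of uncalled regions and 24.7% of regions called again, and in single-window regions 9.85% of uncalled regions and 19.2% of those called again.

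**Figure D5:**
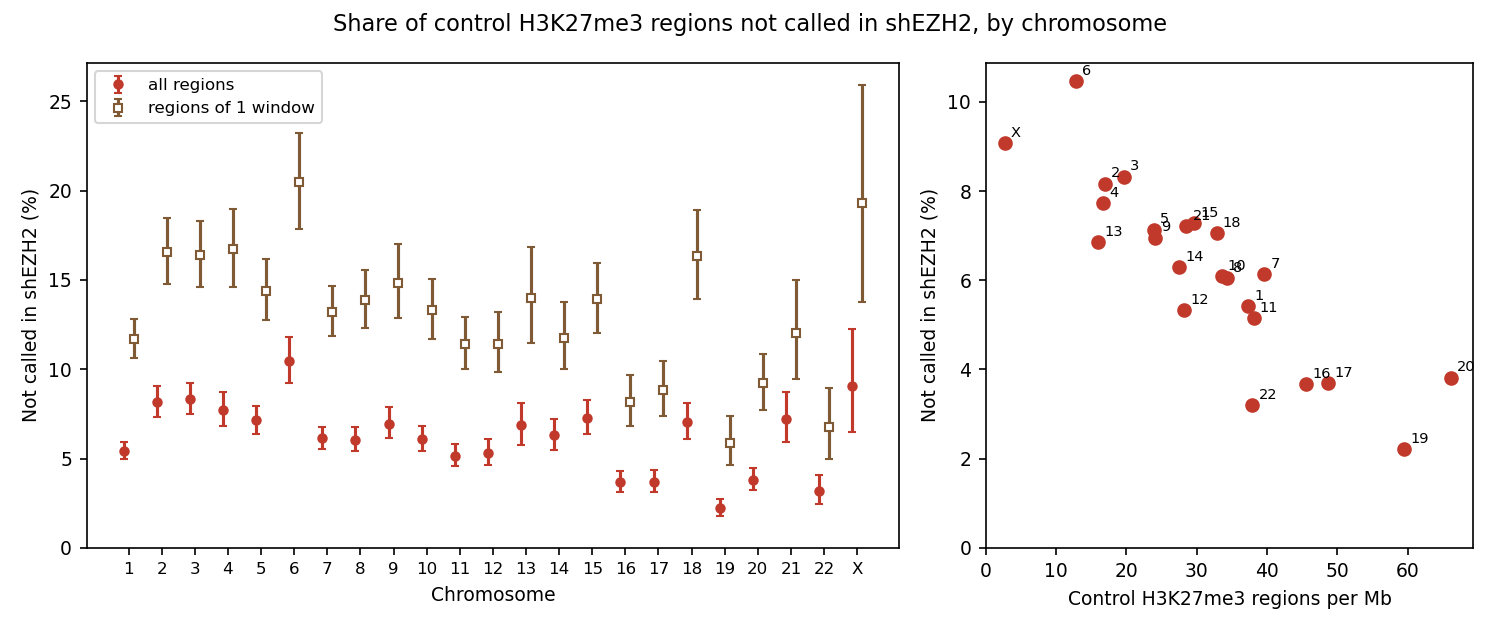
Left, share of control H3K27me3 regions not called in shEZH2 (percent) on each chromosome, for all regions (filled circles) and regions of 1 window (open squares), with 95% exact binomial intervals. Right, the share over all regions against control H3K27me3 regions per Mb, 1 point per chromosome. Chromosome 6 is highest at 10.5% and chromosome 19 lowest at 2.22%.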

How the data were processed

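Deposited peak lists of 6 of the 9 samples were used, 1 library per target and group, and the other 3 samples were not analysed here. Samples were grouped by their titles. The submitters' processing notes name BWA 0.6.1, HOMER 4.1 and the build hg19. Per the file headers, each library was called by itself without an input library. EZH2 peaks were fixed windows at a false discovery rate of 0.001. H3K27me3 and H3K27ac regions in control joined windows of 150 bp at that rate, and in shEZH2 windows of 1000 bp at a Poisson probability of 0.001. The deposited signal is tags scaled by the authors to 10000000 per library. Scores were used as the authors give them, to rank peaks within 1 list. Clonal fold and fold over local background are ratios quoted from the deposited lists. The deposited fraction of tags near a peak's centre and the deposited local p-value were not used. H3K27me3 libraries held 26241104 tags in shEZH2 and 33289172 in control, EZH2 libraries 14514395 and 13331155, and H3K27ac libraries 22175405 and 17438009.

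Overlap meant at least 1 shared bp, and widths count both end bases. Shares have 95% exact binomial (Clopper-Pearson) intervals and differences Newcombe intervals, or Mantel-Haenszel weights over strata. They cover counting error only, and no p-value was computed. Repeat-rich sequence was located from the 6 lists themselves, counting a stretch before a chromosome's first region. Repeats elsewhere were not located, so regions described as away from repeat-rich sequence may still lie in repeats. Named regions, away from that sequence, were the 10 with most tags, the 5 widest, the 5 with the EZH2 peak of highest score, the 5 with most shEZH2 H3K27ac tags, the 5 most remote from H3K27me3, the 5 longest series, and 3 on each side of the rule. The region on chromosome 16 was chosen after its values were seen. The regions and the comparisons were chosen with earlier results of these data known. No hg19 sequence or annotation was used here, so regions carry coordinates and no gene names. The overlap code was tested on simulated data, and its number of uncalled regions matched bedtools 2.31.1. Intervals came from scipy 1.17.1, tables from pandas 2.3.3 with numpy 2.4.6 under Python 3.11.15, and plots from matplotlib 3.10.9.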

Additional observations from a re-analysis of the deposited data

How the results depend on the processing

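The number of uncalled regions, 5063, depended on what counted as a call. It was 3211 when a shEZH2 region within 1 kb also counted, 31738 against the upper 50% of the shEZH2 list by score, 1578 in the upper 50% of the control list by score, and 77 among control regions with at least 9.53 tags, the last chosen after the data were seen. With 50% coverage required, on autosomes alone, or without repeat-rich sequence it stayed within 1.5 times. The H3K27ac difference, 0.253 points in uncalled minus called again, was 0.826 within 1 kb, 1.5 over deciles of tags, 1.39 over width classes, 0.603 (0.207 to 1.07) with 50% coverage, 0.398 (0.0312 to 0.838) without repeat-rich sequence, and 1.13, 1.12 and 1.01 in single-window regions (all of them, weighted over tag values, and without repeat-rich sequence). The EZH2 difference, -8.50 points, was -13.6 within 1 kb, -4.16 with the shEZH2 list, -0.349 over deciles of tags, -0.53 over width classes, and -0.31, -0.289 and -0.495 in the same single-window regions. Isolation, 34 points at 10 kb, was 43.6 at 5 kb, 13.6 at 50 kb, 30.7 over deciles of tags, and 31.7 and 31.6 in single-window regions. The ratio of the highest to the lowest chromosome, 4.72, was 10.3 per Mb and 3.48 in single-window regions. The cause of these shifts was not tested. The single-window comparisons were added after the data were seen. No paired analysis was possible because each group held 1 library. Depth limits single uncalled regions, since 14 raw tags lie behind the median one.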

Other observations

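Outside chromosomes 1 to 22 and X, the control list held 1097 further H3K27me3 regions, of which 47 met no shEZH2 region. Of the 5063 uncalled regions, 186 (3.67%, 3.17 to 4.23) lay in repeat-rich sequence, and 3.84% of regions called again did. The repeat-rich uncalled regions included the widest of all, on chromosome 16 from 33957767 to 33959541, which was 1775 bp wide with 177.2 control H3K27me3 tags and lay 1235 bp from the nearest shEZH2 region. A shEZH2 EZH2 peak of 22 tags lay on it and no control EZH2 peak did. Its neighbour on chromosome 16 from 33955090 to 33955985 held 94.3 H3K27me3 tags, with EZH2 of 27.6 tags in shEZH2 and 28.5 in control. These 2 regions were chosen after their values were seen.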
